A study of Mus musculus with 4 samples.

Results

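The 7 genes described here are the interleukin 18 genes Il18 (the cytokine), Il18r1 and Il18rap (the chains of its receptor) and Il18bp (its soluble binding protein), and the interleukin 1 genes Il1a (a cytokine), Il1r1 (its receptor) and Il1rn (the receptor antagonist). They were picked by symbol out of the 32227 features of the count tables, and each symbol matched 1 feature. Their levels by region and cell class in these same data were known when they were picked, so those levels are given as a description, without a test.

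The samples were 4 single-cell libraries of intestinal epithelium from wild-type (WT) mice on postnatal day 6, before weaning. A segment of jejunum and a segment of ileum came from each of 2 mice, so each region has 2 libraries, and libraries of the same mouse share a number. Epithelium was released with EDTA and dispase and the cells were barcoded by PIPseq, a droplet method that tags the 3′ ends of RNA with unique molecular identifiers (UMIs). Mouse, labelled sex and labelled batch coincide: mouse 1 is labelled male and batch 1, mouse 2 female and batch 2. The female transcript Xist stood at 537 and 467 CPM (UMI counts scaled to a common library total) in the libraries labelled male and at 0.712 and 0.984 CPM in those labelled female, and the Y-linked gene Eif2s3y at 0.0228 and 0.109 CPM against 89.1 and 66.4 CPM, so in all 4 libraries both genes went against the labelled sex. The Y-linked Ddx3y was counted in all 4, at 112 and 84.0 against 236 and 190 CPM, and Uty at 1.07 and 142 against 123 and 74.4 CPM, so these did not split the mice in the same way, whereas Kdm5d did, at 0.51 and 0.885 against 17.4 and 12.4 CPM. No comparison below uses sex.

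After the study's filters 7300 and 8502 ileal and 8997 and 5722 jejunal cells were kept, with a median of 12047.5 and 10916 UMIs per ileal cell and 4689 and 5883.5 per jejunal cell. The deposited tables hold 131400239 and 125067265 UMIs for the ileum and 64391480 and 57951874 for the jejunum. No barcode of a kept cell was shared between libraries. Cells were clustered anew, since no cell names were used here, and classes carry "-like" names from their markers: 6173 and 6821 ileal and 7813 and 4927 jejunal cells were enterocyte-like, 503, 537, 555 and 505 stem/progenitor-like, 74, 71, 68 and 46 enteroendocrine-like, and 53 in all immune-like (values are given for ileum 1, ileum 2, jejunum 1 and jejunum 2, in that order, throughout). A class rests on rebuilt clusters and may differ from the study's own names. In the enterocyte-like cells of every library all 12 enterocyte markers were detected, and their summed level was 20368 to 43669 CPM. The 21 immune markers summed to 185 to 223 CPM there, with 16 or 17 detected and S100a8 at 0 in all 4 libraries. All genes of the stem/progenitor, goblet, enteroendocrine, Paneth and tuft lists were detected there too, so detection alone does not set the class apart. The enterocyte marker Sis stood higher in stem/progenitor-like cells, at 1005%, 1680%, 398% and 733% of its enterocyte-like level, and higher still in enteroendocrine-like cells.

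Interleukin 18 is made as an inactive precursor that caspase-1 of the inflammasome cuts, and gut epithelium is known as a steady source of it. The mature cytokine is held by IL18R1, which signals only once IL18RAP joins the complex; T cells, natural killer cells and innate lymphoid cells are its usual bearers, and IL18BP captures the free cytokine. Interleukin 1 alpha is an alarmin that acts through IL1R1 and the shared chain IL1RAP, and IL1RN blocks that receptor. Both receptors signal through MYD88, IRAK kinases and TRAF6 to NF-kB.

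The promoters of the receptor pair and of both cytokines are shown because the results turn on where each chain and each ligand was found. All 7 genes were found in the RefSeq promoter table (build GRCm38.p6, an older build than the counting reference GRCm39). The windows are the 250 bases before the first listed start, 5′ to 3′ on the gene's strand, at chr1:40465302-40465551 (plus) for Il18r1, chr1:40515112-40515361 (plus) for Il18rap, chr9:50554450-50554699 (plus) for Il18 and chr2:129309973-129310222 (minus) for Il1a. Capitals mark the letters of 6 motifs searched on both strands.
Il18r1: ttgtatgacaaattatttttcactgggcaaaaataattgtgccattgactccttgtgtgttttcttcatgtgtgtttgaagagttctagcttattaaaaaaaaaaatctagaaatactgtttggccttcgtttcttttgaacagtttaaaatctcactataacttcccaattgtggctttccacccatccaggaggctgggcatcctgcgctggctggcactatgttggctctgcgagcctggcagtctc
Il18rap: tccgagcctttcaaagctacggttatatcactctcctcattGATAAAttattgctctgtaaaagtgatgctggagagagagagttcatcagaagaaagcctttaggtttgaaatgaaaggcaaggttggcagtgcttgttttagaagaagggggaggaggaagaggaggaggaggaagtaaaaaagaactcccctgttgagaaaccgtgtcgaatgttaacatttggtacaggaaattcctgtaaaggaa
Il18: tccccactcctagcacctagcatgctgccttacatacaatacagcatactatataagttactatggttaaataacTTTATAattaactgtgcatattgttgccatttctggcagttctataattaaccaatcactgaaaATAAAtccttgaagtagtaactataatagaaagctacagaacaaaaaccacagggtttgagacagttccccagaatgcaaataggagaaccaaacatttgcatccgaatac
Il1a: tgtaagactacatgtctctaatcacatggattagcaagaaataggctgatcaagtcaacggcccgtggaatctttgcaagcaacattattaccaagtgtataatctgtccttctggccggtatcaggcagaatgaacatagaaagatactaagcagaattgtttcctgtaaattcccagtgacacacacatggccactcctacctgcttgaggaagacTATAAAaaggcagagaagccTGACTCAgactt
The motifs were TATAAA (the TATA box), TTTAT (the core letters of caudal-type factors such as CDX2, which overlap a TATA box), GATAA (GATA factors), TGANTCA (AP-1), the NF-kB site and CAAAGT (a part of the site of HNF4-type receptors). They occurred in 12.4%, 37.3%, 22.6%, 6.75%, 1.41% and 12.6% of all 32851 windows of this length. Il1a held TATAAA 32 to 27 bases before its start and TGANTCA 12 to 6 bases before it. Inside its TATAAA lay TTTAT on the opposite strand, 31 to 27 bases before the start. Il18 held TATAAA on the opposite strand 175 to 170 bases before the start and TTTAT at 2 places, 1 of them inside it. Il18rap held overlapping GATAA and TTTAT letters and the Il18r1 window none of the 6. Il18r1 has 3 listed starts, and only the window before the first was searched. A match is only a match of letters in these windows.

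Il18r1 (ENSMUSG00000026070) was the gene of the 7 that differed most between the regions. In enterocyte-like cells it stood at 40.2 and 15.1 CPM in the ileal libraries and at 0.25 and 0.196 CPM in the jejunal ones, from 3130, 1257, 13 and 8 UMIs. Both ileal libraries lay far above both jejunal ones, and the ileal mean was 124-fold higher (27.6 ± 17.7 against 0.223 ± 0.0378 CPM; SD, n = 2 libraries per region). The ileal libraries themselves differed, and without ileum 1 the log2 ratio of the means was 6.08 in place of 6.95. An Il18r1 UMI was found in 26.5% and 11.8% of ileal and in 0.154% and 0.162% of jejunal enterocyte-like cells. With each cell thinned to 2000 UMIs, which left out 50, 273, 684 and 196 shallower cells, the shares were 6.97% and 2.69% against 0.0561% and 0.0423%. The regional order was therefore the same at equal depth, although 1 UMI in a thinned cell already equals 500 CPM.

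Across all genes with at least 10 UMIs in these sums, both ileal libraries lay above both jejunal ones for 34.5% of genes and below them for 24.1%. Of the 7 genes only Il18r1 had both ileal libraries higher, Il1a and Il18bp had both jejunal libraries higher, and Il18, Il18rap, Il1r1 and Il1rn overlapped. These counts used the values the genes were picked on, and nothing is read from them.

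The enteroendocrine-like cells, the hormone-secreting cells of the epithelium, had Il18r1 UMIs in both regions. Their levels were 31.8 and 60.5 CPM in the ileum and 73.8 and 111 CPM in the jejunum, from 10, 17, 17 and 27 UMIs in 8, 13, 7 and 11 cells. In the ileum this was 79.3% and 402% of the enterocyte-like level, beside medians of 41.1% and 30.3% for the enterocyte markers in these cells, so in ileum 1, with 10 UMIs, it was not told apart from enterocyte RNA. In the jejunum it lay far above the 0.25 and 0.196 CPM of the enterocyte-like cells of the same libraries. Here the regions stood in the opposite order, with both jejunal libraries above both ileal ones (92.5 ± 26.4 against 46.2 ± 20.3 CPM; SD, n = 2), as for 21% of genes in this class. Counting intervals of single libraries overlapped, however, at 35.3 to 96.9 CPM for ileum 2 and 43 to 118 CPM for jejunum 1 (exact Poisson, 95%; intervals cover counting error only). Thinned to 2000 UMIs, 5.48% and 13.4% of ileal and 6.78% and 11.1% of jejunal cells of the class held an Il18r1 UMI. By this share the jejunum was higher in mouse 1 and the ileum in mouse 2.

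Enteroendocrine cells comprise subtypes told apart by their hormones, among them enterochromaffin cells, which make serotonin with the enzyme TPH1 and the peptide substance P from Tac1. In the ileum 17 of 21 cells with an Il18r1 UMI also had a Tac1 UMI (81%), against 59 of 124 cells without one (47.6%). In the jejunum the counts were 15 of 18 (83.3%) and 36 of 96 (37.5%). Tph1 was found in 18 of 21 and 18 of 18 cells with Il18r1 and in 76 of 124 and 45 of 96 without it. Most cells with Il18r1 thus also held Tac1 and Tph1. Somatostatin (Sst) was found in 0 of 21 and 0 of 18 cells with Il18r1 and in 7 of 124 and 3 of 96 others, and Pyy, of L cells, in 0 of 21 and 2 of 18 against 24 of 124 and 17 of 96. The median depth was 3478 and 4039.5 UMIs in the cells with Il18r1 and 3240.5 and 3398.5 in the others. Not all hormone genes differed this way: Sct was found in 16 of 21 and 16 of 18 cells with Il18r1 against 94 of 124 and 69 of 96 others, Cck in 9 of 21 and 8 of 18 against 64 of 124 and 52 of 96, and Nts in 3 of 21 and 0 of 18 against 11 of 124 and 9 of 96. These genes were picked from 14 after their values were seen. Tph1, Sct and Cck were among the markers of the class, and Tac1, Sst and Pyy were among the leading genes of its cluster, so no test is given.

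In stem/progenitor-like cells Il18r1 was lower: the ileal libraries had 6.62 and 2.15 CPM and the jejunal ones 0.287 and 0.529 CPM, from 22, 7, 1 and 2 UMIs, without overlap, as for 25.4% of genes with both ileal libraries higher in this class. The ileal values were 16.5% and 14.3% of the enterocyte-like level of the same library. The 12 enterocyte markers stood at a median of 21.1% and 20.6% of their enterocyte-like level in these cells, and single markers such as Alpi (10.9% and 11.5%) and Lct (11.5% and 9.9%) stood lower than Il18r1, so the ileal Il18r1 signal lay within the range of enterocyte RNA and was not told apart from it. In the jejunum 1 and 2 UMIs leave the stem/progenitor-like and the enterocyte-like level indistinguishable. The cluster left without a name, whose cells held 11 of the 12 enterocyte markers but were led by Hbb-bs, had 36.2 and 17.3 CPM in the ileum and 0 UMIs in 533 and 225 jejunal cells, which allows up to 1.04 and 2.07 CPM.

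**Figure D1:**
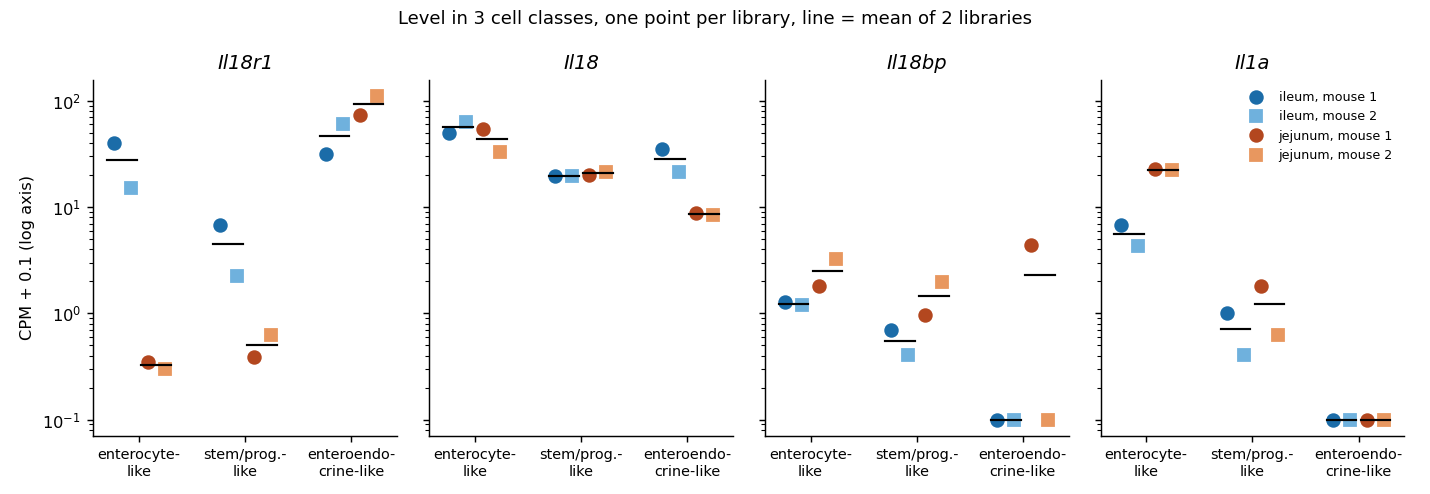
Levels of Il18r1, Il18, Il18bp and Il1a in enterocyte-like, stem/progenitor-like and enteroendocrine-like cells, as CPM + 0.1 on a log axis, with 1 point per library and a line at the mean of the 2 libraries of a region. Il18r1 in enterocyte-like cells sits at 40.2 and 15.1 CPM in the ileum and 0.25 and 0.196 CPM in the jejunum, while the enteroendocrine-like points of both regions lie between 31.8 and 111 CPM.

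Within the ileal enterocyte-like cells Il18r1 varied strongly from cluster to cluster. Over the clusters with at least 50 cells it ranged from 6.06 to 109 CPM in ileum 1 (17 clusters) and from 3.02 to 55.6 CPM in ileum 2 (15 clusters). In both libraries the highest level was in the cluster led by Sprr2a2 and Nt5e, followed by the cluster led by Reg3g and Reg3b (87.5 and 51.4 CPM) and the one led by 3300005D01Rik, Sprr2a2 and Enpp3 (86 and 30 CPM). Nt5e encodes an ecto-nucleotidase known from villus tips, and Reg3b and Reg3g are antimicrobial lectins. The cluster led by Aldh1a1 and Fabp6 was among the lowest, at 8.44 and 3.02 CPM. Of the 979 cells of the Reg3g cluster, 534 and 416 were ileal and 17 and 12 jejunal, and Il18r1 was among its own leading genes. Without that cluster the log2 ratio of ileum over jejunum was 6.71, so the regional difference did not rest on it. In the jejunum no enterocyte-like cluster of at least 50 cells passed 1.27 CPM. The Sprr2a2 and Nt5e cluster stood at 1.27 and 0.944 CPM there, from 2 and 1 UMIs, which are too few to rank the jejunal clusters.

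Il18 (ENSMUSG00000039217), the ligand, showed no such regional difference. It stood at 50 and 63.2 CPM in ileal and 54.2 and 32.7 CPM in jejunal enterocyte-like cells, and the groups overlapped. The ileal mean was 1.3-fold the jejunal one (56.6 ± 9.33 against 43.5 ± 15.2 CPM; SD, n = 2). The mice went different ways, with a log2 ratio of ileum over jejunum of -0.11 in mouse 1 and 0.95 in mouse 2. After thinning, 8.95% and 10% of ileal and 8.29% and 4.95% of jejunal enterocyte-like cells held an Il18 UMI. Stem/progenitor-like cells had 19.6, 19.4, 20.1 and 21.4 CPM, below the enterocyte-like level in every library and nearly level across the 4. Those values were 39.1%, 30.6%, 37.1% and 65.4% of the enterocyte-like level, above the medians of 21.1%, 20.6%, 16.4% and 20% for the enterocyte markers. Enteroendocrine-like cells had 11, 6, 2 and 2 Il18 UMIs (35, 21.4, 8.68 and 8.24 CPM). These were 70%, 33.8%, 16% and 25.2% of the enterocyte-like level, against marker medians of 41.1%, 30.3%, 13.7% and 14.9%, and with so few UMIs they were not told apart from enterocyte RNA.

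Receptor and ligand ran in opposite directions across the ileal enterocyte-like clusters. The Sprr2a2 and Nt5e cluster, highest for Il18r1, was lowest for Il18, at 8.42 and 7.94 CPM. The Aldh1a1 and Fabp6 cluster had the highest Il18 level in both ileal libraries, at 87.3 and 103 CPM, followed by the cluster led by Anxa8 and Fabp6 (78.3 and 101 CPM), whose leading genes include Il18. Spearman's rho between the 2 genes over clusters was -0.58 in ileum 1 (17 clusters) and -0.61 in ileum 2 (15 clusters). These clusters share libraries, were made from these genes among others, and differ in depth, so no p is given. In the jejunum Il18 was also low in the Sprr2a2 and Nt5e cluster (21.6 and 12.3 CPM, the lowest cluster of jejunum 2) and highest in the Anxa8 cluster (80.4 and 56.8 CPM), with Il18r1 near 0 throughout.

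**Figure D2:**
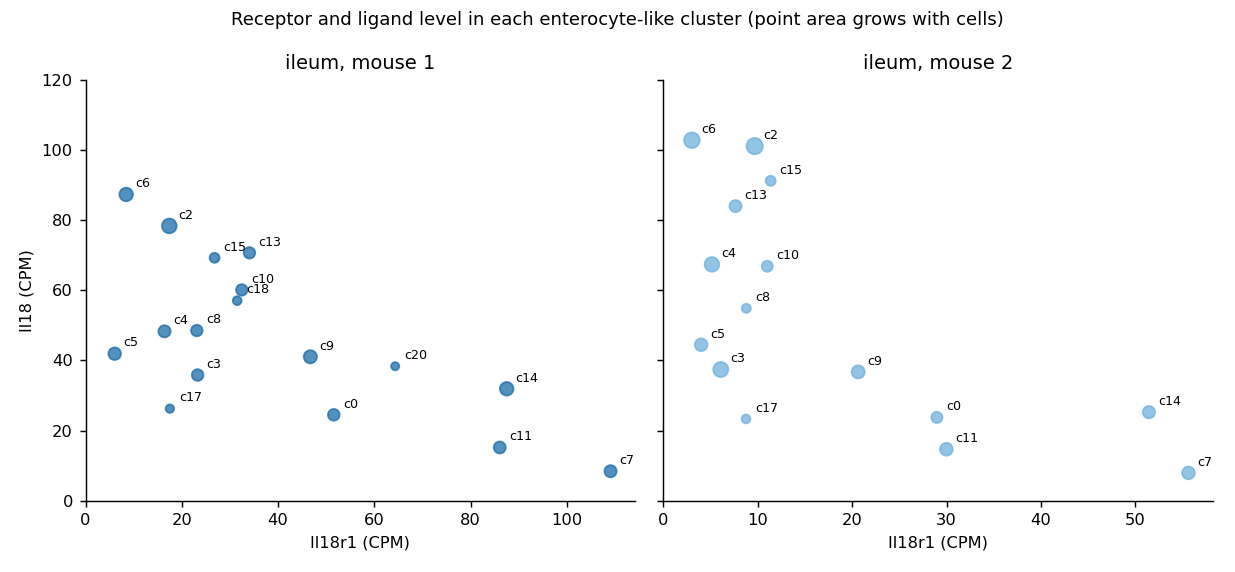
Il18 against Il18r1 level (CPM) in each enterocyte-like cluster of at least 50 cells, for the ileum of mouse 1 and of mouse 2; each point is a cluster labelled with its cluster number, and its area grows with the number of cells. Clusters with Il18r1 above 40 CPM in mouse 1 have Il18 at or below 41.0 CPM, and the cluster led by Sprr2a2 and Nt5e lies at the lower right of both panels.

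The same order appeared when enterocyte-like cells were split into 5 equal bins of each library by the share of their UMIs from ribosomal protein genes, a measure that does not use these members. From the lowest to the highest bin Il18r1 fell from 83.1 to 10.8 CPM in ileum 1 and from 24.4 to 5.16 CPM in ileum 2. Il18 went from 18.2 to 78.9 CPM in ileum 1 and from 17.4 to 88.5 CPM in ileum 2, by way of 97.1 CPM in the bin before the last. In the jejunum Il18 went from 30.9 to 68 CPM and from 19.4 to 37.1 CPM, so the ligand was higher in ribosome-rich cells of all 4 libraries. The median share of ribosomal protein UMIs was 2.35% and 6.96% in the outer bins of ileum 1. Nt5e, the villus tip gene, was at 32.7 and 12.2 CPM in the lowest ileal bins and at 1.30 to 2.98 CPM in the others, whereas Ada (0.167 to 0.542 CPM in the ileum) and Slc28a2 (145 to 285 CPM) showed no peak there. Median depth also differed between the bins (8970 to 17151 UMIs in ileum 1), and the median mitochondrial share was highest in the lowest bin of every library (4.49%, 4.83%, 9.30% and 11.3%) and lowest in the bin before the last (3.13%, 3.14%, 4.29% and 9.15%); the part of either was not tested.

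**Figure D3:**
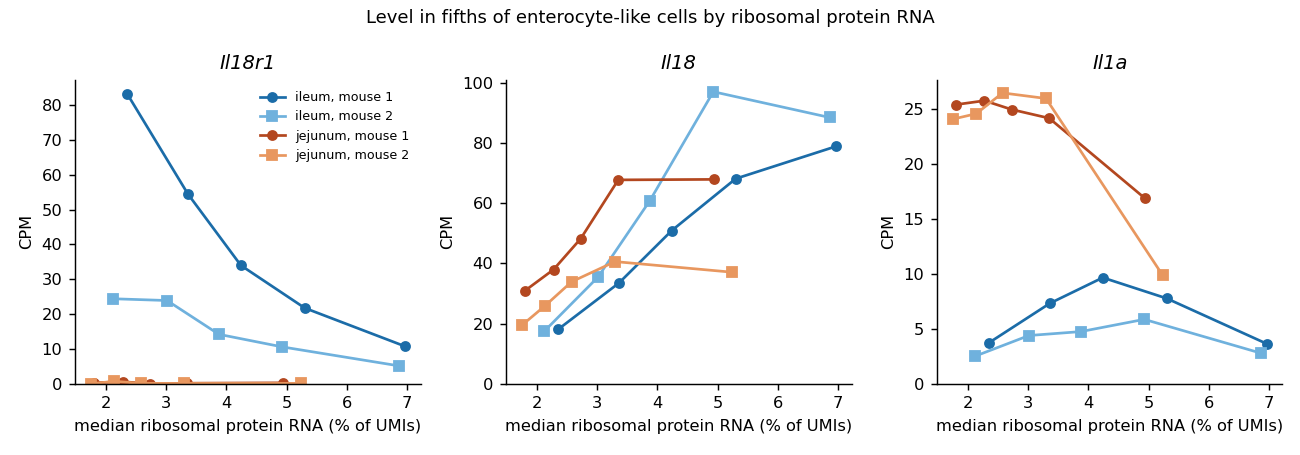
Level of Il18r1, Il18 and Il1a (CPM) in 5 equal bins of the enterocyte-like cells of each library, placed at the bin's median percent of UMIs from ribosomal protein genes; each line is a library. Il18r1 falls and Il18 climbs with the ribosomal share in the ileum, while Il1a drops in the most ribosome-rich jejunal bin, to 16.9 and 9.86 CPM.

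In single ileal enterocyte-like cells thinned to 2000 UMIs, an Il18 UMI was found in 34 of 427 cells with an Il18r1 UMI (7.96%; exact binomial 95% interval 5.58 to 10.9%) and in 9.02% of 5696 cells without one in ileum 1. In ileum 2 the shares were 11 of 176 (6.25%, 3.16 to 10.9%) and 10.1% of 6372. Both libraries had the lower share in the receptor-bearing cells, by 1.06 and 3.89 percentage points, and the intervals of the shares overlap in both libraries. Thinning to 4000 UMIs left out 1175 and 1337 shallower ileal cells, against 50 and 273 at 2000, so the cells compared were not the same. The shares were then 12.1% (9.65 to 14.8%) of 647 cells against 17.0% (15.9 to 18.1%) in ileum 1. In ileum 2 they were 11.5% (8.12 to 15.6%) of 305 cells against 19.7% (18.6 to 20.8%). The differences (with minus without Il18r1) were -4.91 and -8.22 percentage points, and there the intervals did not overlap. Cells of 1 library are not replicates, so the intervals at either depth cover counting error only. Unthinned, 34.7% and 32.9% of cells with Il18r1 and 35.3% and 38.7% without it held Il18, with no doublets removed and no background share known for free RNA, so both UMIs in 1 barcode are not read as both genes being active in 1 cell. An Il18rap UMI was found in 0 of the 427 and 0 of the 176 thinned cells with Il18r1, and unthinned in 4 of 1636 and 0 of 805. An Il1a UMI was found in 4 of the 427 and 2 of the 176. Casp1, the caspase that cuts the Il18 precursor, was found in 18.8%, 20.2%, 18.8% and 24.8% of thinned cells with Il18 and in 19.7%, 17.2%, 20.1% and 21.5% of those without.

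Il18rap (ENSMUSG00000026068), the chain that completes the receptor, was barely detected in the epithelium of either region. Enterocyte-like cells held 9, 7, 3 and 6 UMIs in all (0.115, 0.0839, 0.0576 and 0.147 CPM), and enteroendocrine-like cells 0, 0, 0 and 1. The 53 immune-like cells held 0, 3, 3 and 2 Il18rap UMIs in 6 cells, and 6, 0, 4 and 1 Il18r1 UMIs in 3 cells, 2 of which had both. Of these 53 cells 49 had Ptprc, the pan-leukocyte gene, 20 had Cd3e of T cells and 26 Tyrobp of natural killer and myeloid cells. In total 10, 10, 6 and 10 Il18rap UMIs were counted among all kept cells, so no difference between regions was detectable at this depth.

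Il18bp (ENSMUSG00000070427), the decoy of the ligand, was low: 1.17 and 1.09 CPM in ileal and 1.71 and 3.12 CPM in jejunal enterocyte-like cells. The jejunal mean was 2.14-fold the ileal one (2.41 ± 0.994 against 1.13 ± 0.0543 CPM; SD, n = 2), with the groups not overlapping and most of the difference in mouse 2 (log2 ratio of ileum over jejunum -1.51, against -0.55 in mouse 1). Thinned, 0.31% and 0.244% of ileal and 0.379% and 0.698% of jejunal cells held a UMI. In ileum 1 its highest enterocyte-like cluster, at 8.26 CPM, was the one led by the interferon-induced genes Ifit3 and Ifit3b, whose cells in the other libraries were under 50.

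Il1a (ENSMUSG00000027399) had the reverse regional order, as Il18bp did at a lower level. It stood at 6.74 and 4.24 CPM in ileal and 22.7 and 22.2 CPM in jejunal enterocyte-like cells, and both jejunal libraries were above both ileal ones. The jejunal mean was 4.09-fold higher (22.4 ± 0.376 against 5.49 ± 1.76 CPM; SD, n = 2). Thinned to 2000 UMIs, 1.26% and 0.901% of ileal and 4.21% and 3.66% of jejunal enterocyte-like cells held an Il1a UMI. The unnamed cluster had the same order, at 5.92, 4.90, 17.6 and 15.8 CPM. Stem/progenitor-like cells held 3, 1, 6 and 2 UMIs (0.902, 0.307, 1.72 and 0.529 CPM), immune-like cells 0, 0, 4 and 1. None was counted in 74, 71, 68 and 46 enteroendocrine-like cells, where the floor of 3 counts equals 9.55, 10.7, 13 and 12.4 CPM. Among clusters Il1a was highest in the one led by 6030407O03Rik, Saa3 and Leap2 in ileum 1 (12.7 CPM) and jejunum 2 (36 CPM). In jejunum 1 that cluster came second (27.9 CPM) to the cluster led by Bglap3 (30.5 CPM). In ileum 2 it also came second (6.17 CPM), to the cluster led by Anxa8 and Fabp6 (6.42 CPM). In the Sprr2a2 and Nt5e cluster, where Il18r1 peaked in the ileum, Il1a stood at 1.77 and 1.7 CPM, from 4 and 3 UMIs. The jejunal cells of that cluster had 18.4 and 26.4 CPM. Over all ileal enterocyte-like clusters Spearman's rho between Il18r1 and Il1a was only -0.09 in ileum 1 and -0.1 in ileum 2.

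Il1r1 (ENSMUSG00000026072), the receptor of Il1a, was counted in few cells of every class. Immune-like cells had 60.2, 0, 15.2 and 11.5 CPM, from 4, 0, 2 and 1 UMIs in 5 of the 53 cells, and enteroendocrine-like cells 0, 3.56, 8.68 and 12.4 CPM, from 0, 1, 2 and 3 UMIs. Enterocyte-like cells had 0.539, 1.39, 0.653 and 0.589 CPM, from 42, 116, 34 and 24 UMIs, and the regions overlapped. The high value of ileum 2 came from 1 cell. That cell held 86 of the 116 UMIs among 18327 in all, had 11 of 12 enterocyte markers and 0 of 10 mesenchymal or endothelial ones, and the next highest cell of its library had 2 Il1r1 UMIs. Without it ileum 2 stood at 0.36 CPM. In thinned cells no cell with Il1a also had Il1r1, at 0 of 77, 59, 300 and 173 cells with Il1a and 0.0845% to 0.14% of enterocyte-like cells with Il1r1, a depth at which co-detection could not be seen. Il1rn (ENSMUSG00000026981) was rarer still, with 2, 7, 4 and 2 UMIs in enterocyte-like cells and 2 UMIs in 1 of the 53 immune-like cells.

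The genes whose levels followed the members most closely were taken from 76 sums per cluster and library of at least 50 cells, over 14043 genes, by Pearson's r of log2(CPM + 5); the sums share libraries and depth, so r is a description. For Il18r1 they were Meg3 (a maternally expressed noncoding RNA; r = 0.96), Ltf (lactoferrin), Pdzrn3, Afp (alpha-fetoprotein) and Fbxo32. Meg3 stood at 191.5 and 44.8 CPM in ileal and 1.11 and 1.30 CPM in jejunal enterocyte-like cells, with the same higher level in ileum 1 than in ileum 2 as Il18r1, and Afp at 185 and 158 against 4.59 and 1.99 CPM. For Il18 they were Echs1 (a mitochondrial enzyme of fatty acid oxidation; r = 0.84), Fahd1, Chpt1, Dera and Plgrkt. For Il1a they were Gda (guanine deaminase; r = 0.88), Arsg, Lrrc4, Rmdn3 and Susd2, and Gda stood at 335 and 376 CPM in the ileum and 1012 and 1053 CPM in the jejunum. The choice depended on the measure. By Spearman's rho the genes named for Il18r1 ranked 2, 23, 8, 16 and 7, in the order given. Those for Il18 ranked 2, 1, 3, 6 and 14, and those for Il1a 4, 20, 1, 38 and 23.

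The other genes of the pathway were tested between the regions with edgeR's quasi-likelihood test on UMI sums per library, with Benjamini-Hochberg adjustment over all genes. In enterocyte-like cells 7.46% of 19546 genes passed an adjusted p of 0.05 (839 or 4.29% higher in the ileum, 619 or 3.17% higher in the jejunum). Of the 62 pathway genes that are not members 54 were tested and 7 passed, 4 higher in the ileum and 3 higher in the jejunum. Their median log2 fold change of ileum over jejunum was 0.06, against -0.01 over all genes. The 5 members that passed the filter on low counts had fitted log2 fold changes of 6.79 ± 0.59 (Il18r1; fitted value ± SE), 0.28 ± 0.26 (Il18), -1.21 ± 0.36 (Il18bp), -2.16 ± 0.23 (Il1a) and 0.54 ± 0.52 (Il1r1), and Il18rap and Il1rn were not tested. The Il1r1 value rests on the 1 cell of ileum 2 described above: without the cluster led by Lars2, whose leading genes hold Il1r1, the log2 ratio of the means was -0.54 in place of 0.64.

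The changes fell mainly in the list of ligand processing and inflammasome genes, where 5 of 19 tested passed. Higher in the ileum were Gsdme (gasdermin E, a pore former cut by caspase-3; 74.1 and 51.9 against 11.9 and 4.05 CPM; log2 fold change 2.87 ± 0.49, adjusted p = 0.0316 by edgeR) and Aim2 (a sensor of cytosolic DNA; 7.26 and 5.41 against 1.36 and 1.1 CPM; 2.24 ± 0.24, adjusted p = 0.0165). Naip2, a NLRC4 partner that senses bacterial secretion rods, was also higher there (66.2 and 56.1 against 37.3 and 33.7 CPM; 0.67 ± 0.14, adjusted p = 0.0479). Higher in the jejunum were Nlrp6, an epithelial inflammasome sensor (31.6 and 40.1 against 106 and 111 CPM; -1.71 ± 0.19, adjusted p = 0.0169), and Gsdmd (gasdermin D, the pore former cut by caspase-1; 96.3 and 91 against 204 and 266 CPM; -1.45 ± 0.19, adjusted p = 0.021). The list therefore held changes in both directions, with a median of 0.04. Casp1 was at 110, 101, 117 and 126 CPM (-0.33 ± 0.14, adjusted p = 0.183) and Pycard, the inflammasome adaptor, at 237, 263, 213 and 180 CPM (0.24 ± 0.15, adjusted p = 0.352).

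Of 17 receptor signalling genes tested 1 passed: Peli1, a ubiquitin ligase that modifies IRAK proteins, was higher in the jejunum (114 and 114 against 184 and 189 CPM; -0.83 ± 0.13, adjusted p = 0.0274 by edgeR). Of 7 family receptors and decoys 1 passed, Il1rl1, the receptor of interleukin 33. Sigirr, a family member that restrains signalling, was at 77.1, 73.9, 58 and 46.8 CPM (0.41 ± 0.15, adjusted p = 0.135). Of 7 other family ligands and antagonists only Il33 was tested (3.5, 2.11, 2.36 and 5.74 CPM; adjusted p = 0.396), and Il1b had 5, 0, 7 and 1 UMIs in enterocyte-like cells and 0, 19, 21 and 0 in immune-like cells. Of 10 NF-kB response genes tested 0 passed by edgeR, 3 had an unadjusted p under 0.05 and 1 passed by DESeq2, and Nfkbia, an inhibitor that NF-kB itself induces, stood at 366, 260, 227 and 352 CPM. Casp1, Pycard, Sigirr, Il33, Il1b and Nfkbia are named for their roles after their values were seen.

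**Figure D4:**
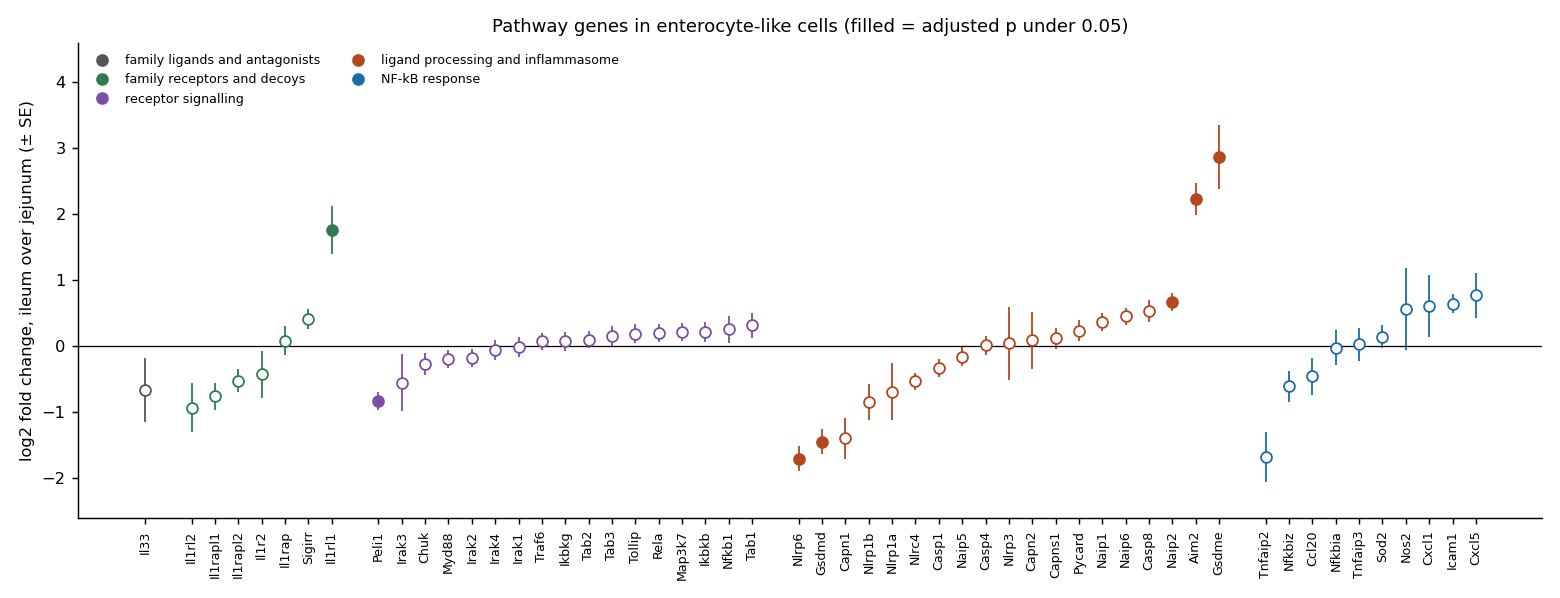
Log2 fold change of ileum over jejunum with its SE for the 54 pathway genes tested in enterocyte-like cells, ordered within 5 lists; filled points passed an adjusted p of 0.05 by edgeR. The inflammasome list spans from -1.71 for Nlrp6 to 2.87 for Gsdme, while the receptor signalling genes stay between -0.83 and 0.32.

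These calls were sensitive to which libraries and cells entered. Kept cells of the ileal libraries had a median mitochondrial share of 3.61% and 3.74%, those of the jejunal libraries 6.37% and 9.94%, and with a limit of 10% on it 5 of the 7 calls remained, without Il1rl1 and Naip2. Without ileum 1, 0 of the 54 pathway genes passed by edgeR and 15 had an unadjusted p under 0.05, and without ileum 2, jejunum 1 or jejunum 2 the counts of pathway genes were 3, 5 and 4. All 7 called genes kept their direction in every fit run. With the mouse as a replicate block 14 of the 54 passed, the 7 above and Capn1, Casp8, Icam1, Il1rapl1, Naip6, Nlrc4 and Tnfaip2, which are named after their values were seen, and 3368 genes passed in all.

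In stem/progenitor-like cells 2.48% of 12880 genes passed. Of 44 pathway genes tested 1 did, Gsdme, again higher in the ileum (23.5 and 23.1 against 9.47 and 4.23 CPM; 1.73 ± 0.34, adjusted p = 0.0329 by edgeR). Nlrp6 was higher in this class than in enterocyte-like cells of the same library, at 225, 204, 283 and 221 CPM, with no call between the regions (-0.27 ± 0.16, adjusted p = 0.481). With the mouse as a block 7 pathway genes and 1124 genes in all passed here.

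Il18r1, Il18rap and Il1r1 lie in a row of receptor genes on chromosome 1. Among the protein-coding genes of the RefSeq table the order is Map4k4, Il1r2, Il1r1, Il1rl2, Il1rl1, Il18r1, Il18rap, Slc9a4, Slc9a2, Mfsd9 and Tmem182. Of the 8 that are not members 1 passed in enterocyte-like cells: Il1rl1, next to Il18r1, was higher in the ileum (1.32 and 0.827 against 0.307 and 0.27 CPM; 1.76 ± 0.36, adjusted p = 0.0456 by edgeR). Slc9a4, a sodium-proton exchanger 2 places beyond Il18r1, was at 1.44, 0.719, 0.327 and 0.294 CPM (1.66 ± 0.42, adjusted p = 0.0719; 0.0347 with the mouse as a block), and Mfsd9 at 19.3, 22.9, 13.3 and 11.5 CPM (0.66 ± 0.18, adjusted p = 0.0793; 0.0463 with the block). Between them Il18rap stayed at or below 0.147 CPM. Map4k4 (54, 47.1, 46.1 and 34.7 CPM; adjusted p = 0.443) and Slc9a2 (16.1, 18.6, 17.4 and 14.1 CPM; adjusted p = 0.922) did not pass, nor did Il1r2, Il1rl2 and Tmem182, all at or below 0.589 CPM. Whether reads near the border of Il1rl1 and Il18r1 were given to the wrong one of the pair was not tested.

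**Figure D5:**
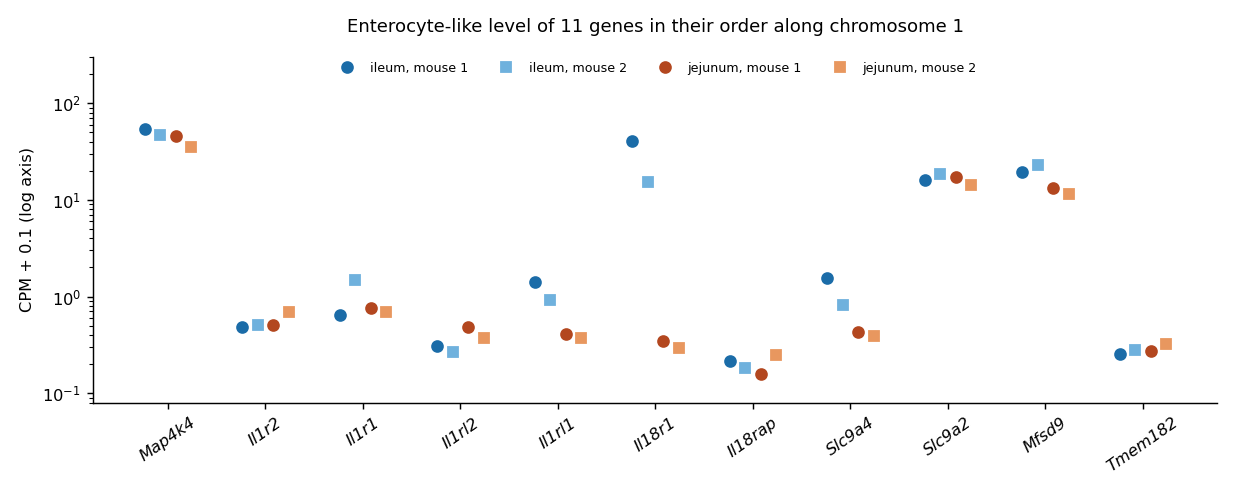
Level of 11 genes in enterocyte-like cells, as CPM + 0.1 on a log axis, in their order along chromosome 1, with 1 point per library. Il18r1 shows the wide gap between ileal (40.2 and 15.1 CPM) and jejunal points, the neighbours Il1rl1 and Slc9a4 a smaller one, and Il18rap none.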

How the data were processed

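UMIs per gene were measured in 4 PIPseq libraries, 2 of ileum and 2 of jejunum. The deposited tables are raw UMI counts per gene and cell; the authors made them with PIPseeker at sensitivity level 3, and the submitters' processing notes name the build GRCm39. No per-sample column was left unused (0), and depth per library is given above.

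Cell quality was computed on genes detected in 3 or more cells of a library. Cells holding over 1000 and under 6000 such genes, with mitochondrial UMIs under 20%, were kept. Sums and levels used all features, and clustering used genes detected in 3 or more kept cells over all libraries together. Libraries were integrated in Seurat 5.3.0 (2000 variable genes, 30 of 50 components, resolution 1, 23 clusters), and clusters were named from fixed markers. Scrublet called 1 or 2 cells per library, which is too few to have worked, so no doublets were removed; leaving out the 6% highest scores was an alternative. Levels are CPM of UMIs summed per library and class. Intervals (exact, 95%) and floors (3 counts) cover counting error only.

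Regions were compared with edgeR 4.0.16 (quasi-likelihood, TMM, filterByExpr, R 4.3.3) with Benjamini-Hochberg adjustment; DESeq2 1.42.0, no filter, thinned sums, a mitochondrial limit of 10%, resolution 0.5, each library left out and the mouse as a replicate block were alternatives. The members and lists were chosen with earlier results of these data known. Same-numbered libraries come from the same mouse, per the labels; their deviations from the group means correlated at 0.479 in enterocyte-like sums (8940 genes) and 0.289 in stem/progenitor-like sums (10398 genes), across genes, which are not independent replicates. On simulated counts the enterocyte-like fit recovered 68.0% of genes changed by a log2 fold of 1 and 97.9% of those changed by 2 among 19546 genes. Those counts had a dispersion (spread between replicates beyond counting error) of 0.02 for every gene and no effect of the mouse. Recovery at the spread of the real libraries was not measured.

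Named were all 7 members, called list genes averaging 5 CPM or more in whichever region was higher (at most 15 per class), every chromosome neighbour, and the 5 genes most correlated with Il18r1, Il18 and Il1a.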

Additional observations from a re-analysis of the deposited data

Results flagged for a closer look

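By CPM of summed UMIs, Il18r1 went opposite ways in enterocyte-like and enteroendocrine-like cells. Its log2 ratio of ileum over jejunum, as a mean of the 2 mice, was 6.80 in enterocyte-like cells and -1.04 in enteroendocrine-like cells, with both mice on the same side in each class. In stem/progenitor-like cells it was 3.28, against the same -1.04 in enteroendocrine-like cells. The stem/progenitor-like value rests on 22, 7, 1 and 2 UMIs and was not told apart from enterocyte RNA. The enteroendocrine-like one rests on 10, 17, 17 and 27, and the counting intervals of the regions overlapped in both mice. By share of enteroendocrine-like cells thinned to 2000 UMIs the mice differed. Ileum against jejunum was 5.48% against 6.78% in mouse 1 and 13.4% against 11.1% in mouse 2.

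Il18 had a mean log2 ratio of 1.69 in enteroendocrine-like cells, from 11, 6, 2 and 2 UMIs, and of -0.09 in stem/progenitor-like cells. None of these differences between classes was tested.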

How the results depend on the processing

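In enterocyte-like cells, 1458 genes and 7 pathway genes were called. The counts were 3068 and 13 with DESeq2, 119 and 1 without the filter on low counts, and 3368 and 14 with the mouse as a replicate block, and they ranged from 137 to 1407 and from 0 to 5 with 1 library left out. In stem/progenitor-like cells, 319 genes and 1 pathway gene became 900 and 4 without the filter and 1124 and 7 with the replicate block, and ranged from 319 to 750 and from 1 to 2 with 1 library left out. The block kept all 1458 enterocyte-like calls and lost no call of a named list gene. Without the filter more genes were tested; the cause of the other changes was not tested. The share of enterocyte-like calls higher in the ileum was 57.5%, and 47.4% and 48.0% without jejunum 1 and jejunum 2.

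The log2 ratio of ileum over jejunum ranged from 6.08 (without ileum 1) to 7.49 for Il18r1, from 0.06 to 0.79 for Il18 and from -2.40 to -1.74 for Il1a with 1 library left out, and with the mouse as a block it was 6.80, 0.42 and -2.07. The mean share of ileal enterocyte-like cells with an Il18r1 UMI was 4.83% at 2000 UMIs, 9.25% at 4000 and 19.2% unthinned. The difference in Il18 between cells with and without Il18r1 was -2.47 percentage points at 2000 UMIs and -6.56 at 4000 (-4.91 and -8.22 in the 2 libraries). These settings differ in the cells that enter, since more shallow cells were left out at 4000. Over all alternatives, 68 values of named list genes kept their call, 27 lost it and 0 reversed. The variants with the unnamed cluster counted as enterocyte-like, and without the clusters whose leading genes hold Il18r1 or Il1r1, were chosen after seeing the data; the cluster whose leading genes hold Il18 was not left out. Il18rap and Il1rn are limited by depth in every class.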
